A study of Mus musculus with 14 samples.

Results

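The 10 genes described here were 3 copies of the Zscan4 cluster (Zscan4c, Zscan4d and Zscan4f) and 7 genes of pluripotent cells (Pou5f1, Nanog, Zfp42, Dppa2, Dppa3, Dppa4 and Dppa5a). They were chosen by name, with Zscan4f also selected on its measured spread between clones. Promoter methylation was listed for 9 of the 10, among 21965 promoters in all, and Nanog was not analysed here.

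The cells were 4T1, a line from a mammary tumour of the mouse, grown in medium with serum, and every clone descended from 1 sorted cell. Clones E and T were intravasating, that is, able to enter the vasculature when clones were assessed as a pool. Clones I, K, L and P were non-intravasating. Genomic DNA was bisulfite converted, a treatment that leaves methylated cytosine unchanged, and sequenced genome-wide. Each promoter had 1 level per clone, a fraction from 0 (no methylation) to 1. The labels name 2 sequencing rounds per clone and the table does not separate them, so no error within a clone is known. The number of reads behind a level is unknown as well.

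In embryos, Pou5f1 (the transcription factor Oct4) and Nanog hold the network that keeps cells of the inner cell mass pluripotent, and in most differentiated tissues their promoters carry DNA methylation. Zscan4 genes are active at the 2-cell stage of the mouse embryo and in a small, changing share of embryonic stem cells, where they act in telomere maintenance and genome stability. Dppa2 and Dppa4 are DNA-binding partners that act upstream of this 2-cell programme. Dppa3 (Stella) acts in the control of DNA methylation in the egg and early embryo, Dppa5a is an RNA-binding protein of stem cells, and Zfp42 (Rex1) is a zinc finger marker of the naive pluripotent state.

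The promoter sequences of the 5 members with both a methylation level and a RefSeq sequence are shown first, since the CpG sites in them are where methylation is read. Each is the RefSeq window (GRCm38.p6, the assembly also called mm10) of 300 bases, from 250 before to 50 after an annotated gene start, written 5′ to 3′ on the gene's strand. Capitals mark CpG sites. Where the submitters set their promoter boundaries is not known here, so their windows may differ. Zscan4f (chr7:11397665-11397964, plus strand) and Zscan4c (chr7:11005495-11005794, plus strand) had 3 and 4 CpG sites. Zscan4d (chr7:11166099-11166398, minus strand) had 3.

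Zscan4f: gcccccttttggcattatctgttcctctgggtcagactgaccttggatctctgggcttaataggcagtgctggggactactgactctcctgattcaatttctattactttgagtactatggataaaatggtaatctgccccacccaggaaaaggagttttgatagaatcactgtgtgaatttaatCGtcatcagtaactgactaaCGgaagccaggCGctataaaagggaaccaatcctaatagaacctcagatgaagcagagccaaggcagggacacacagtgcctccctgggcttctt

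Zscan4c: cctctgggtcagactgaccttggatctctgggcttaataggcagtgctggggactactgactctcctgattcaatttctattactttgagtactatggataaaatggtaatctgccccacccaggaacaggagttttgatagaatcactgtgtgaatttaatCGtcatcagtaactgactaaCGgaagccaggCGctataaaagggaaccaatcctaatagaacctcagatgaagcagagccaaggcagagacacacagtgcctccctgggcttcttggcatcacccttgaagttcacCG

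Zscan4d: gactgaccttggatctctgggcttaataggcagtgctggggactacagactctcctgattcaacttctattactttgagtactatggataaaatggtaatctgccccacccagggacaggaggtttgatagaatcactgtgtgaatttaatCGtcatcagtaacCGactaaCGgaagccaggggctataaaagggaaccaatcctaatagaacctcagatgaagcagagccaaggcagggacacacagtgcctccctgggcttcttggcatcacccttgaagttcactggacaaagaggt

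Pou5f1, at the first of the 2 starts listed (chr17:35505782-35506081, plus strand), and Zfp42 (chr8:43306960-43307259, minus strand) had 11 CpG sites each. The median over the first windows of 27025 genes was 7.

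Pou5f1: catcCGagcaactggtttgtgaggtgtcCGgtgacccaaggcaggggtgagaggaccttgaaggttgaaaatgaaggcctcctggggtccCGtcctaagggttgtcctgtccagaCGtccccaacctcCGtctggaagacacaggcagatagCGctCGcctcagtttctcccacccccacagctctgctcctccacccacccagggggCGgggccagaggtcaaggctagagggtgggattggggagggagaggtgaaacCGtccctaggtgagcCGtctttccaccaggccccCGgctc

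Zfp42: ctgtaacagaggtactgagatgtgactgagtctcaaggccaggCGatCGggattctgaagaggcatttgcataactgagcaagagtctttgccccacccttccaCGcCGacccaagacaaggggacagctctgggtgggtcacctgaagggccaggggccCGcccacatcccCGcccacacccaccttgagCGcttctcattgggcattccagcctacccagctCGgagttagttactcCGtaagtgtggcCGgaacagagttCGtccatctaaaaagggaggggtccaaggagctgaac

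The Zscan4 windows are near-copies of each other. Zscan4c and Zscan4f were identical at 275 of 277 aligned positions (99.3%), with a longest unbroken match of 127 bases. Zscan4d was identical to Zscan4c at 97.6% of 287 aligned positions and to Zscan4f at 97.4% of 266. Reads from such copies may be shared or dropped in mapping, and the submitters' treatment of such reads is not known here, so the levels of single Zscan4 copies are uncertain.

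Outside the Zscan4 cluster, all 6 pluripotency promoters listed were methylated in every clone. Their mean levels lay between 0.616 (Dppa2) and 0.798 (Dppa5a), with a median of 0.766, and no clone was below 0.540 at any of them. Over all promoters the median was 0.328, and 39.0% had a mean of at least 0.5.

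Pou5f1 had levels of 0.819 (E) and 0.767 (T) in intravasating clones, against 0.760 (I), 0.782 (K), 0.708 (L) and 0.802 (P) in non-intravasating ones. Zfp42 had levels of 0.754 (E) and 0.731 (T) in intravasating clones, against 0.827 (I), 0.817 (K), 0.744 (L) and 0.818 (P) in non-intravasating ones. At Pou5f1 clone E was the highest and clone L the lowest, while at Zfp42 clones T, L and E were lower than clones I, K and P. In both cases the groups overlapped.

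Dppa4 (chr16:48283735-48294292) and Dppa2 (chr16:48310274-48319513), neighbours in the RefSeq annotation of the same assembly, differed in level. Dppa4 had levels of 0.857 (E) and 0.685 (T) in intravasating clones, against 0.753 (I), 0.773 (K), 0.757 (L) and 0.732 (P) in non-intravasating ones. Dppa2 had levels of 0.650 (E) and 0.579 (T) in intravasating clones, against 0.675 (I), 0.596 (K), 0.540 (L) and 0.660 (P) in non-intravasating ones. Dppa4 was higher than Dppa2 in each of the 6 clones, at 0.759 ± 0.0566 against 0.616 ± 0.0532 (SD, n = 6). The intravasating clones stood at the 2 ends of the Dppa4 values, E highest and T lowest.

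Dppa3 lies at chr6:122626424-122630271 and Dppa5a at chr9:78367052-78368199. Dppa3 had levels of 0.753 (E) and 0.663 (T) in intravasating clones, against 0.696 (I), 0.730 (K), 0.616 (L) and 0.679 (P) in non-intravasating ones. Dppa5a had levels of 0.840 (E) and 0.793 (T) in intravasating clones, against 0.849 (I), 0.824 (K), 0.645 (L) and 0.833 (P) in non-intravasating ones. Clone L was the lowest at both, and at Dppa5a it lay apart from the other five. RefSeq lists the pseudogenes Dppa5b and Dppa5c on the same chromosome as Dppa5a, so its level may include reads from these copies.

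The 3 Zscan4 promoters had lower mean levels, of 0.249 (Zscan4c), 0.483 (Zscan4d) and 0.442 (Zscan4f), and Zscan4c and Zscan4f had wider ranges over the clones than any of the 6 genes above. Zscan4d had levels of 0.440 (E) and 0.474 (T) in intravasating clones, against 0.396 (I), 0.562 (K), 0.474 (L) and 0.549 (P) in non-intravasating ones. Zscan4c had levels of 0.0800 (E) and 0.235 (T) in intravasating clones, against 0.30 (I), 0.190 (K), 0.524 (L) and 0.167 (P) in non-intravasating ones. Zscan4f had levels of 0.154 (E) and 0.667 (T) in intravasating clones, against 0 (I), 0.857 (K), 0.143 (L) and 0.833 (P) in non-intravasating ones. Clones K, P and T were thus high at Zscan4f and clones E, L and I low, a division that runs across both groups. The 0 listed for clone I may stand for an unmethylated promoter or for one with no usable estimate.

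**Figure D1:**
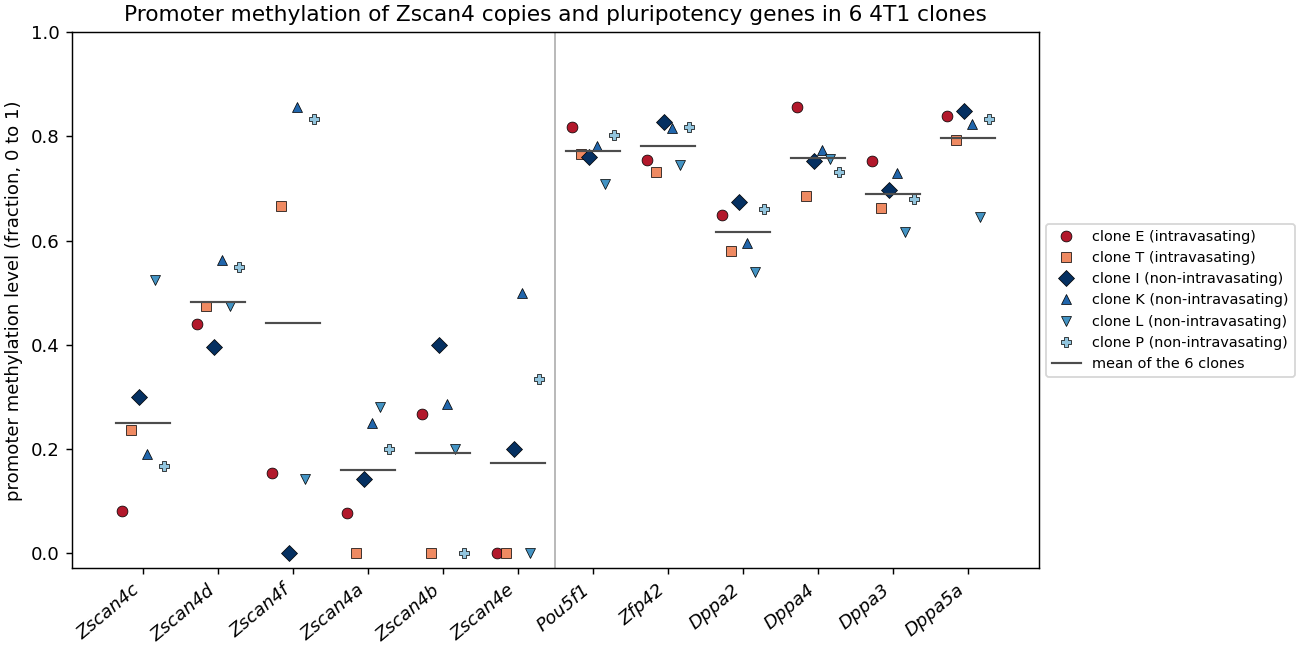
Promoter methylation level (fraction, vertical axis) of 9 of the genes described and of the other three Zscan4 copies in the table, with 1 point per clone and a bar at the mean of the 6 clones. Intravasating clones are in red and orange, non-intravasating clones in shades of blue. The 6 genes on the right lie between 0.540 and 0.857, while Zscan4f spans 0 to 0.857.

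The spread of Zscan4f, which is what it was chosen for, is given as a description. Its range over the clones was 0.857, which ranked 3 among the 21965 promoters, whose median range was 0.0894. The 2 wider promoters, 9930111J21Rik1 and Gm14351, had a range of 1.00, and the next narrower one, Mageb5, had 0.775. Among the 1339 promoters with a mean level within 0.05 of its own it stood at the 99.9 percentile. The range of Zscan4c was 0.444 and ranked 108. That of Zscan4d was 0.167, which was in the middle (percentile 50.3) of the promoters with a like mean. The 6 other members had ranges of 0.0962 (Zfp42) to 0.204 (Dppa5a).

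**Figure D2:**
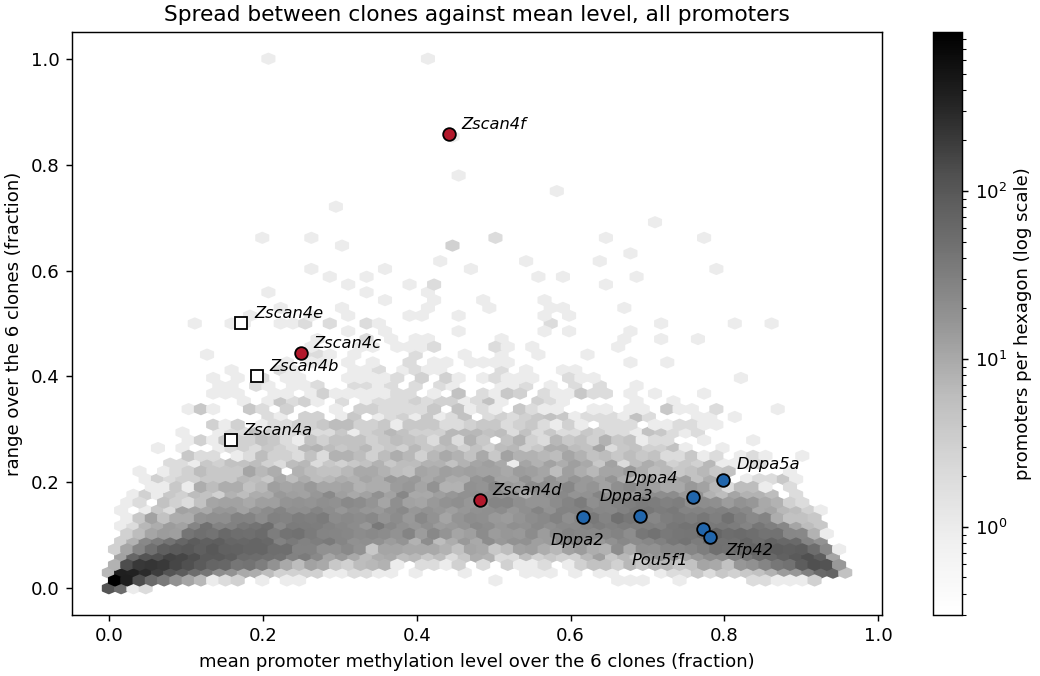
Range over the 6 clones against mean level for all 21965 promoters (grey hexagons, shaded by number on a log scale, lightest for 1 promoter). Filled circles are the genes described, red for Zscan4 and blue for the others, and open squares are the other three Zscan4 copies. Zscan4f lies at a mean of 0.442 and a range of 0.857, above nearly all promoters, and the blue points lie inside the grey field.

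The precision behind these levels can be judged in part from how finely they are graded. All 6 Zscan4f levels can be written as fractions with a denominator of at most 13, to the 6 significant digits given, which held for 41 of all promoters (0.187%). These 41 promoters had a median range of 0.375, and Zscan4f ranked 3 among them. The largest denominator needed was 25 for Zscan4c, 78 for Zscan4d, and between 314 (Dppa4) and 598 (Zfp42) for the members outside the cluster. The counts behind the levels are not in the table, and none was derived. The part of this coarse grading in the spread of Zscan4f was not tested.

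The other three copies of the cluster had low and uneven levels too. Zscan4a had levels of 0.0769 (E) and 0 (T) in intravasating clones, against 0.143 (I), 0.250 (K), 0.280 (L) and 0.20 (P) in non-intravasating ones. The groups did not overlap here, as at 11.2% of all promoters, and overlapped at the other copies. This rests in part on the 0 of clone T, which may likewise be an absent estimate. Zscan4b had levels of 0.267 (E) and 0 (T) in intravasating clones, against 0.40 (I), 0.286 (K), 0.20 (L) and 0 (P) in non-intravasating ones. Zscan4e had levels of 0 (E) and 0 (T) in intravasating clones, against 0.20 (I), 0.50 (K), 0 (L) and 0.333 (P) in non-intravasating ones. Clone K was the highest at Zscan4d, Zscan4e and Zscan4f, but clone L at Zscan4a and Zscan4c and clone I at Zscan4b. Zscan4c and Zscan4f, with nearly the same promoter letters, thus had different clones at the top.

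The comparison stated in the study design set the 2 intravasating against the 4 non-intravasating clones. limma (a moderated linear model, fitted to all promoters) called none of the 8 members other than Zscan4f at a Benjamini-Hochberg adjusted p under 0.05, and none had an unadjusted p under 0.05. The same fit called 0.00911% of all promoters, and 3.93% (864 of 21965) had an unadjusted p under 0.05, so a count of 0 among 8 is near that background. Each of the 8 members had an adjusted p of 1. The smallest unadjusted p, 0.0911 by limma, was that of Zfp42, at 0.742 ± 0.0166 (SD, n = 2) in intravasating and 0.802 ± 0.0385 (SD, n = 4) in non-intravasating clones. Its difference of -0.0591 had a 95% limma interval of -0.130 to 0.0116. The Pou5f1 difference was 0.0299, with an interval of -0.0464 to 0.106, and the Zscan4c difference was -0.138, with an interval of -0.352 to 0.0764. These intervals rest on a spread drawn in part from all promoters, and they leave room for differences in either direction.

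The groups overlapped at each of the 9 members, against 11.2% of all promoters at which they did not overlap. With each clone centred on its own median over all promoters, the groups no longer overlapped at Pou5f1 and Zfp42, against 9.74% of all promoters. Of the 9 members, 5 had a lower and 4 a higher mean in the intravasating clones, and the median difference was -0.00307, beside -0.00424 over all promoters. The direction at Dppa2, Dppa3, Dppa4, Dppa5a and Zscan4f turned round when a particular clone was left out, clone E at Dppa3 and Dppa4 and clone L at Dppa5a, and each of several clones at Dppa2 and Zscan4f. The mean level of the 6 members outside the Zscan4 cluster was 0.779 (E) and 0.703 (T) in the intravasating clones, against 0.760 (I), 0.754 (K), 0.668 (L) and 0.754 (P) in the non-intravasating clones. Clones L and T were the lowest here, as they were over all promoters (means of 0.369 and 0.377, against 0.402 to 0.412 in the rest). Clone L was the lowest clone at 4 of the 9 members, Pou5f1, Dppa2, Dppa3 and Dppa5a, and at 35.9% of all promoters.

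The genes next to each member on the chromosome, in the order of the RefSeq table and with a promoter listed, differed widely in level. Around Pou5f1, in the major histocompatibility region of chromosome 17, the next genes Tcf19 and Cchcr1 were at 0.0516 ± 0.0142 and 0.0553 ± 0.0123 (SD, n = 6), against 0.773 ± 0.0387 for Pou5f1 itself. On its other side H2-Q10, a class I histocompatibility gene, was at 0.760, and H2-Q7 and H2-Q6 were at 0.473 and 0.420. Psors1c2, further along, was at 0.747. High and low promoters thus lay near each other, and no clone departed from this order of Pou5f1 above Tcf19.

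Dppa3 lies on chromosome 6 beside Gdf3, a growth factor gene of the TGF-beta family active in early embryos, and Slc2a3, a glucose transporter gene. Gdf3 was at 0.637 ± 0.0412 and Slc2a3 at 0.592 ± 0.0307 (SD, n = 6), near the 0.690 ± 0.0488 of Dppa3. Apobec1, the gene of an RNA-editing enzyme, was at 0.148, Foxj2 at 0.149 and C3ar1 at 0.414. Nanog lies between Dppa3 and Slc2a3 in RefSeq, so the levels on either side of it were 0.690 and 0.592.

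Around Dppa4 and Dppa2, the germ cell gene Morc1 was at 0.817, Cd96 at 0.570, Trat1 at 0.557, Gm5485 at 0.481, Tagln3 at 0.862 and Plcxd2 at 0.120. Dppa5a lies beside genes of the egg and germ line: Ooep, part of a maternal complex of the egg, was at 0.707, Omt2b at 0.715, Omt2a at 0.629 and the germ cell helicase gene Ddx43 at 0.924. Gsta2, a detoxification enzyme gene, was at 0.817, and Mto1, needed for mitochondrial tRNA modification, at 0.0850. Clone L was also the lowest clone at Omt2a, Omt2b and Ddx43, though not at Gsta2, Ooep or Mto1. Next to Zfp42, Triml2 was at 0.755, Triml1 at 0.475 and Frg1 at 0.241, and the testis protease genes Adam26b, Adam26a and Adam34 were at 0.537, 0.366 and 0.477. Beyond the Zscan4 cluster the pheromone receptor genes Vmn1r72, Vmn1r73 and Vmn1r74 were at 0.488, 0.227 and 0.197, and Mir297-1 inside it at 0.257. The ranges of Mir297-1 and of these receptor genes over the clones were 0.119 to 0.247, and that of Zscan4d, at 0.167, lay among them.

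**Figure D3:**
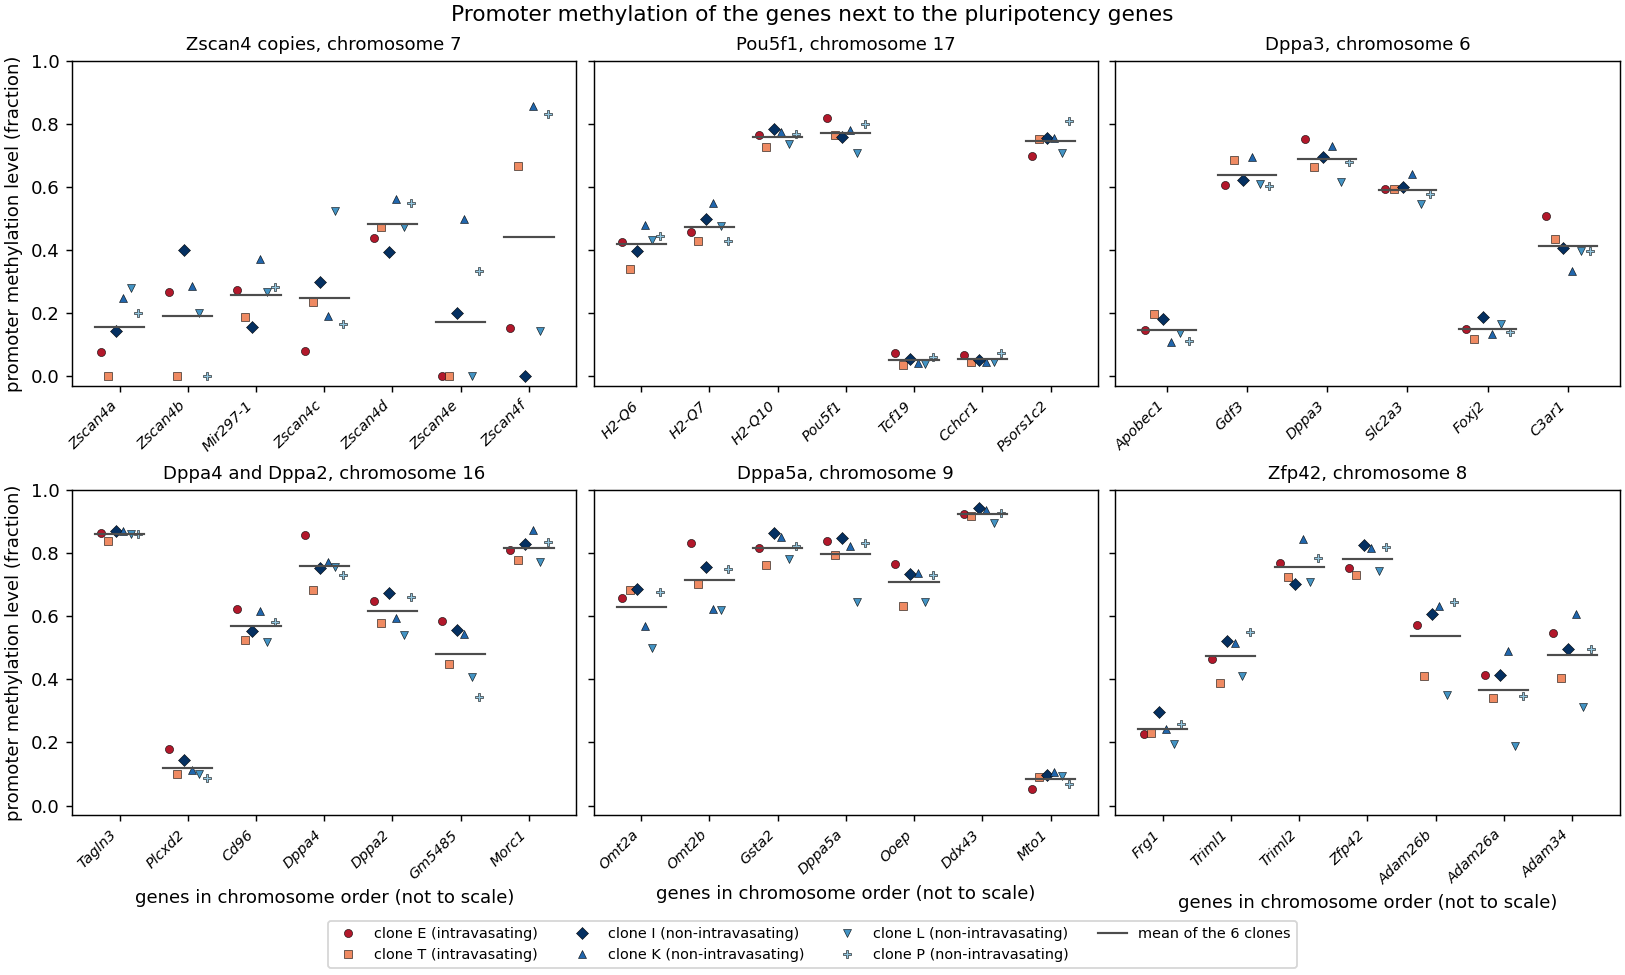
Promoter methylation level (fraction) of each gene and its neighbours in chromosome order, 1 panel per locus, with 1 point per clone and a bar at the mean of the 6 clones. Distances are not to scale. Pou5f1 at 0.773 stands next to Tcf19 at 0.0516, while Dppa3 at 0.690 stands between Gdf3 at 0.637 and Slc2a3 at 0.592.

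Other genes of the same programmes were set beside these members by list. These lists share a few genes with each other and with the neighbours above (Gdf3, Morc1, Triml1 and Triml2 stand among the pluripotency factors). In the lists a gene with several promoters was given their mean in each clone, which can narrow its range. Values over all promoters count each promoter singly, so the units are not quite alike. Of 40 further core pluripotency factors 38 had a promoter, with a median level of 0.750, and 26 were at 0.5 or above. They ran from Myc, a growth regulator used far beyond stem cells, at 0.00817 to Zic2, a zinc finger factor, at 0.943. Fbxo15, a target of Oct4 in stem cells, had the widest range, from 0.276 in clone I to 0.507 in clone K. Germline genes were higher still, with a median of 0.841 and 41 of 44 at 0.5 or above. Their range ran from Tdrd7 at 0.0666 to Taf9b at 0.930, a general transcription factor gene kept on this list, and Tex15, a meiotic gene, varied most, from 0.634 to 0.828.

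The 28 listed 2-cell stage genes with a promoter, the other three Zscan4 copies included, had a median of 0.351, with 9 at 0.5 or above. Dux, the factor that switches this programme on, was at 0.799 ± 0.0288 (SD, n = 6), and Eif1ad was lowest at 0.0244. Zscan4e had the widest range of this list. Of these genes 10 had a range above 0.204, the widest among the members outside the Zscan4 cluster, beside 9.99% of all promoters. The same held for 7 of the 34 maternal and early embryo genes, 2 of the 38 pluripotency factors, 2 of the 19 other SCAN genes, 3 of the 14 epithelial, 1 of the 14 leukocyte and 1 of the 12 fibroblast markers, and for none of the 44 germline genes, 23 repressors or 28 housekeeping genes. The median range was 0.151 in the 2-cell list and 0.0894 over all promoters.

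Maternal and early embryo genes lay between, with a median of 0.545 and 18 of 34 at 0.5 or above. Zar1 was highest at 0.912, Zbed3 lowest at 0.0144, and Nlrp2 varied most, from 0.518 in clone I to 0.863 in clone K. Genes listed here as repressors of the 2-cell programme were mostly low, with a median of 0.118 and 3 of 23 at 0.5 or above. Ncl, the nucleolin gene, was at 0.00408, Sumo2 ranged from 0.146 to 0.313, and Tbx3, which stood on this list and on the pluripotency list, was at 0.906. The action of Tbx3 on the 2-cell programme was not tested, so its level is not read as that of a repressor.

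Other SCAN zinc finger genes, which share the SCAN domain with Zscan4, had a median of 0.190, with 5 of 19 at 0.5 or above, and ran from Zscan29 at 0.0195 to Zkscan2 at 0.869. Zscan18 varied most, from 0.321 to 0.616. Housekeeping genes had a median of 0.0704, with 1 of 28 at 0.5 or above (Rab7, at 0.857). Pgk1 was lowest at 0.00473, and Gusb ranged from 0.217 to 0.380. limma called none of the promoters on these lists between the groups. An unadjusted p under 0.05 was found for 2 of the 43 promoters of pluripotency factors, 3 of 28 of 2-cell genes, 0 of 50 of germline genes, 2 of 34 of maternal genes, 1 of 29 of repressors, 1 of 19 of SCAN genes and 2 of 29 of housekeeping genes, beside 3.93% of all promoters.

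**Figure D4:**
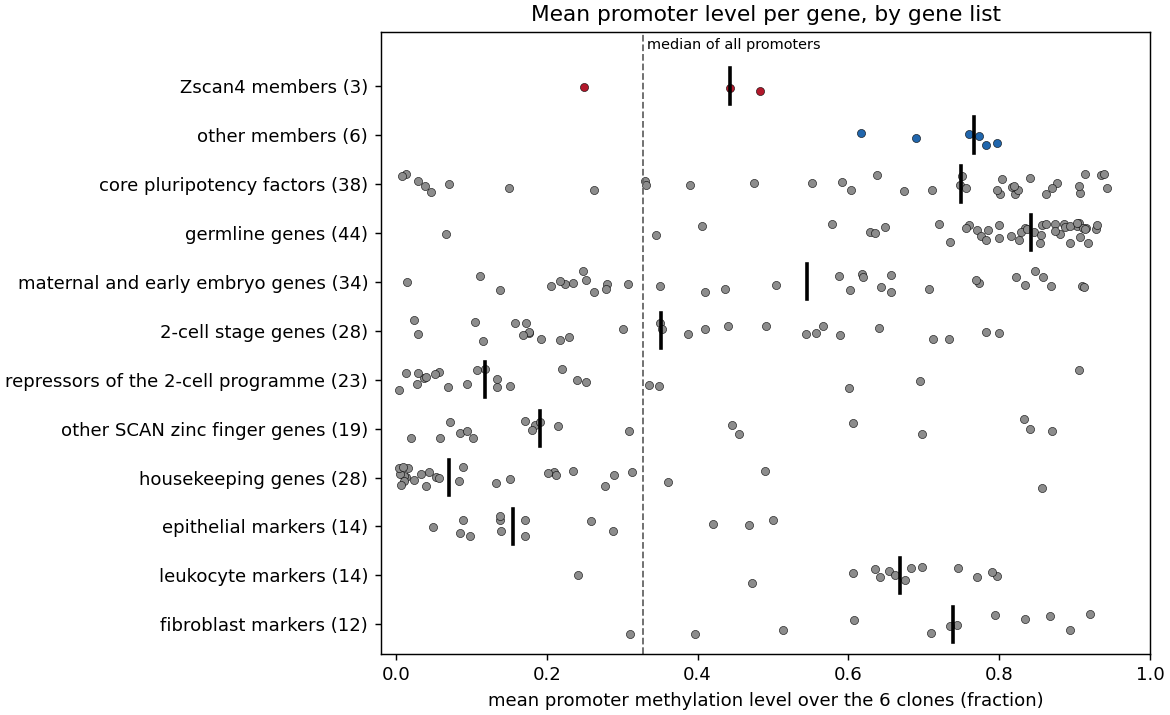
Mean promoter level over the 6 clones (fraction, horizontal axis) for each gene, by list, with the number of genes in parentheses, a black bar at the median of each list and a dashed line at the median of all promoters (0.328). The 6 members outside the Zscan4 cluster have a median of 0.766, near the 0.750 of the core pluripotency factors, and the 3 Zscan4 members have one of 0.442.

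Markers of the cell type were read the same way. Of 14 epithelial markers none had a mean of 0.5 or above (median 0.155). Krt7 was lowest at 0.0496, Krt19 highest at 0.4996, and Cldn4 ranged from 0.0126 in clone L to 0.256 in clone E. Leukocyte markers had a median of 0.668, with 12 of 14 at 0.5 or above, and fibroblast markers one of 0.739, with 10 of 12. They ran from Cd14 at 0.241 to Cd79a at 0.797 and from Pdgfra at 0.310 to Twist2 at 0.920. Laptm5 varied most among the leukocyte markers (0.553 to 0.769) and Col3a1 among the fibroblast markers (0.413 to 0.635). limma called none of these marker promoters, and an unadjusted p under 0.05 was found for 2 of 15 epithelial, 0 of 14 leukocyte and 0 of 14 fibroblast promoters, beside 3.93% of all promoters. The share of other cells in the cultures was not tested.

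The promoters whose 6 levels were most like those of Zscan4f, by the mean absolute difference over the clones, were Mir200c (0.207), Olfr38 (0.222), Psg29 (0.223), Mir141 (0.224) and Gm6639 (0.234). These differences were large beside the median range of a promoter, 0.0894. Mir200c is a microRNA gene of epithelial cells. Mir200c had levels of 0.522 (E) and 0.520 (T) in intravasating clones, against 0.286 (I), 0.665 (K), 0.0409 (L) and 0.683 (P) in non-intravasating ones. As at Zscan4f, clones K and P were the highest and clones I and L the lowest. Clones E and T were nearly level at Mir200c but far apart at Zscan4f (0.154 and 0.667). The grading of the Mir200c levels was much finer (a denominator of 959 was needed). The likeness is over 6 clones only and was picked from all promoters.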

How the data were processed

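Bisulfite sequencing libraries of 6 clones, made from genomic DNA in 2 rounds per the labels, were analysed as promoter methylation levels. The authors deposited these as a fraction per clone and promoter. Per the submitters' processing notes, mm10, bedtools and DESeq were used, with no role given. The sources used here name no aligner or promoter boundaries and do not say how rounds were pooled. Parental libraries and the table of hypomethylated regions, which has no gene names, were not used here.

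The table had 22110 rows, and 145 exact repeats were dropped. Intravasating and non-intravasating clones were compared by limma (version 3.58.1, under R 4.3.3; eBayes with a mean trend, p-values adjusted by Benjamini-Hochberg over all promoters), and this fit was tested on simulated levels. A count model held ready for read counts was not used, since the table holds levels alone. With 1 value per clone, p-values and intervals set the group difference against the spread of clone values within the groups, after moderation. In moderation limma draws the spread of each promoter toward a trend over all promoters. An interval can therefore be narrower or wider than the clone values of that promoter alone would give. The spread of clone values holds both differences between clones and measurement error, which cannot be separated here. The table gives no coverage, so no counting intervals or coverage minimums were possible. Zscan4f, picked for its spread, was not tested.

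Python 3.11.15, pandas 2.3.3, NumPy 2.4.6 and Biopython 1.88 (local alignment) gave the rest. Genes were named by rule: all members, up to 3 neighbours on each side (1 of them is not reported here), the 5 promoters nearest to Zscan4f, and in each list the highest, lowest and most variable gene. The promoters with the widest ranges were named after their values were seen. Sequences were found for 5 of the 9 members listed, too few for a check of CpG content over the members, which is void. The members and lists were chosen with earlier results of these data known. Alternatives were other scales, no mean trend, centred clones, a range filter and each clone left out.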

Additional observations from a re-analysis of the deposited data

Results flagged for a closer look

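In 2 of the 12 genes checked (9 members and the other three Zscan4 copies), 1 of the 4 non-intravasating clones lay far from the others. The Dppa5a promoter was at 0.645 in clone L, and the gap to the nearest clone took up 0.877 of the group's range. The Zfp42 promoter was at 0.744 in clone L, with a gap of 0.877 of the range as well. Chance alone flags about 1 in 20 groups by this measure (Dixon's, at the 95% level). Clone L also had the lowest mean level over all promoters.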

How the results depend on the processing

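No member was called by limma under any of the 11 alternatives (smallest adjusted p 0.597, without clone L). An unadjusted p under 0.05 was found for 1 member with promoters of range under 0.1 left out, which leaves out Zfp42 (4.0% of the promoters kept), for 1 without clone L (7.7% of all promoters) and for 1 without clone T (3.97%). Without clone T or clone E the intravasating group is 1 clone, assumed to vary like the non-intravasating clones. The non-intravasating clones alone then give the spread within the groups, which limma draws toward the trend over all promoters. The range filter uses the same clone values as the test, so counts after it are not independent of the group difference. The levels put 6 members at 0.5 or above, against 8 at 0.3 or above and 4 at 0.7 or above. Calls over all promoters, 2 in the fit reported, were 0 without the mean trend (943 with an unadjusted p under 0.05), 5 with clones centred on their median, 25 once promoters with a range under 0.1 were left out, and 0 to 4 with a clone left out (0 without clone L, with 1691 at an unadjusted p under 0.05, and 4 without clone E). Members with no overlap between the groups numbered 2 after centring (Pou5f1 and Zfp42, where 9.74% of all promoters had none) and 0 to 4 with a clone left out: 4 without clone T (34.0% of all promoters), 2 without clone E (37.1%) and 1 without clone L (25.0%). Fewer clones make such gaps more frequent. The spread of Zscan4f stood at percentile 99.9909, at 99.9253 among promoters of like mean level, and at 99.9818 to 99.9954 with a clone left out. Zscan4f was chosen for this spread in the same clones, so these percentiles are a description and no independent check. The group difference of Zscan4f, -0.0481 with no test, was 0.241 on the logit scale and -0.304 to 0.208 with a clone left out. The Dppa2 difference was 0.00438 after centring and -0.0385 to 0.0323 with a clone left out, that of Dppa3 -0.0173 to 0.0722, of Dppa4 -0.0688 to 0.103 and of Dppa5a -0.0193 to 0.0515. The cause of these changes of sign was not tested. No paired analysis was possible because each clone has 1 value and belongs to 1 group. With the depth unknown, a difference between 2 clones at a Zscan4 copy has no error of its own.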
